A study of Mus musculus with 531 samples.

Results

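Annexin, S100 and simple keratin genes were followed through the mouse embryo from implantation to the onset of gastrulation. They are 10 of the 22084 genes in the count table, namely Anxa2, Anxa3, Anxa5, S100a4, S100a6, S100a10, S100a11, Krt8, Krt18 and Krt19, chosen on their measured RNA levels in these cells, log2(CPM + 1) by stage, embryo and lineage, where CPM is counts per 1000000 reads of a cell. Their own levels are therefore given as a description, without a test, and tests are given only for related genes. The related genes were also listed with earlier results of these data known, which limits what their adjusted p-values can show. Single cells of C57Bl/6Babr embryos, for which the labels name no treatment or altered gene, were sequenced by scM&T-seq, in which the RNA of a cell is separated from its DNA and read by Smart-seq2. The RNA libraries comprised 91 cells of 5 embryos at E4.5, 80 cells of 1 embryo at E5.5 and 93 cells of 2 embryos at E6.5, of which 75, 59 and 83 held at least 50000 reads and 2000 detected genes and were kept. The embryo is the replicate, and E5.5 therefore has none. The study's own text gives another number of E4.5 embryos than the labels, and the labels were followed here. Before cells were picked, the trophectoderm had been removed at E4.5 by immunosurgery, the visceral endoderm and extraembryonic ectoderm pulled away at E5.5, and the extraembryonic tissue dissected off at E6.5. No stage shares a label prefix with another, so stage and any processing that follows the prefix cannot be told apart.

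Annexins bind acidic membrane lipids in the presence of calcium and take part in membrane traffic, membrane repair and the anchoring of actin. S100 proteins are small calcium sensors that work mostly as dimers and bind annexins, with S100A10 and ANXA2 as the classical tetramer at the plasma membrane. Simple keratins build the intermediate filaments of single-layered epithelia from obligate pairs of a type II chain (KRT8) and a type I chain (KRT18 or KRT19), and are known in the early mouse embryo as markers of the trophectoderm and the visceral endoderm.

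Lineages were named from marker lists in clusters that did not use any annexin, S100 or keratin gene. The E4.5 cells fell into 24 epiblast-like and 51 endoderm-like ones, and each embryo gave at least 4 of both. The 13 endoderm markers summed to between 9092 and 12702 CPM in endoderm-like cells of an embryo and to between 179 and 2934 CPM in epiblast-like cells. At E5.5, 38 cells were epiblast-like, 8 held at least 10 CPM of each of the endoderm genes Amn, Apoa1, Cubn and Dab2 and are called endoderm-marker cells, and 13 were neither. All 8 endoderm-marker cells lay at cell numbers that are multiples of 12. At E6.5, 30 cells were epiblast-like (16 and 14 in embryos 1 and 2), 14 endoderm-like (12 and 2), 23 mesoderm-like (all in embryo 2), and 16 stayed unnamed. The mesoderm-like cluster raised 7 mesoderm markers, but also 5 epiblast markers and 5 endoderm markers (Gata6, Gata4, Sox17, Foxa2 and Pdgfra). What this mixture means for the levels of the listed genes in mesoderm-like cells was not tested. Kept cells held between 112008 and 8904445 reads.

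The E6.5 cells of every lineage held reads of endoderm genes. All 83 kept E6.5 cells held reads of Ttr and Apoa1, secreted proteins of the visceral endoderm, with no fewer than 11.3 CPM of Ttr in any cell. Ttr summed to 1800 and 1120 CPM in the epiblast-like cells of embryos 1 and 2, to 554 CPM in the mesoderm-like cells, and to 4589 and 3054 CPM in the endoderm-like cells. At E5.5, 2 of 38 epiblast-like cells held a Ttr read and 9 an Apoa1 read, and Ttr summed to 2646 CPM in the endoderm-marker cells. At E4.5, 7 of 24 epiblast-like cells held a Ttr read and 4 an Apoa1 read. The 8 trophectoderm and extraembryonic ectoderm markers summed to between 8.45 and 24.5 CPM in E4.5 epiblast-like cells, 48.2 and 194 CPM in E4.5 endoderm-like cells, and 114 and 60.3 CPM in the epiblast-like cells of the E6.5 embryos, where all 8 had reads. At E5.5 they were at 0 in the endoderm-marker cells.

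Krt8 and Krt18 lie beside each other on chromosome 15, 23873 bases apart and pointing away from each other, with the predicted genes Gm36026 and Gm41404 between them. The S100 genes lie on chromosome 3, where S100a4 and S100a6 are 6848 bases apart with S100a5 between, and S100a11 and S100a10 are 28828 bases apart. The sequences from 250 bases before to 20 bases after the annotated start (RefSeq, GRCm38.p6) were matched for 7 of the 10 genes, all but Anxa3, S100a10 and Krt19. Those of the keratin pair, whose levels are compared cell by cell, and of Anxa2, read in 1 of 38 epiblast-like cells at E5.5, are shown with motif matches in capitals, at chr15:102004323-102004592 (minus strand), chr15:102027966-102028235 (plus strand) and chr9:69453433-69453702 (plus strand).
Krt8: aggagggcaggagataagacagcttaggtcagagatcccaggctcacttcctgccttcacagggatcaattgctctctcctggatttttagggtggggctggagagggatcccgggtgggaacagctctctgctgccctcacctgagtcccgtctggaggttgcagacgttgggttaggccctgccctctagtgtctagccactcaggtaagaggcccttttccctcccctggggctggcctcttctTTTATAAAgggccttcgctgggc
Krt18: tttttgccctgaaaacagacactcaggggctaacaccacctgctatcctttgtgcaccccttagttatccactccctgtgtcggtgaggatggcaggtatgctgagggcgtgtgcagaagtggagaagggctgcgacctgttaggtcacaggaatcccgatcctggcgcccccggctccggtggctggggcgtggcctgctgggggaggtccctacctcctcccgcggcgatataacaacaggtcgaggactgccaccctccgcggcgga
Anxa2: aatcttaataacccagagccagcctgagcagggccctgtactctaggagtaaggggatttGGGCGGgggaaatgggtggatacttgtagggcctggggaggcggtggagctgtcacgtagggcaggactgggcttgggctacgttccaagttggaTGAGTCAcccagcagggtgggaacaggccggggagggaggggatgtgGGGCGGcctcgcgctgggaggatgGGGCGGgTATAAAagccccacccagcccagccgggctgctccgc
Both strands were searched for TATAAA (found in 12.9%), CCAAT (35.4%), GGGCGG (34.1%), TGANTCA, its own reverse complement (7.23%), and GGAATG (13.5%) of all 32851 RefSeq windows of the same 270 bases. In Krt8 the capitals mark TATAAA on both strands, overlapping, which begin 3 and 1 bases before the start site and span it. Krt18 held none of these motifs. Anxa2 held GGGCGG at 3 places, TGANTCA once and TATAAA once, and S100a11 likewise held GGGCGG at 3 places and TGANTCA at 2. S100a4 held TATAAA and S100a6 CCAAT, and Anxa5 held none.

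The listed genes followed different courses. S100a10 was read in nearly every cell of every named lineage, Krt8 and Krt18 went from a few CPM or less in most E4.5 units to at least 138 CPM in every named unit at E6.5, Anxa2 was present at E4.5 and E6.5 and all but missing at E5.5, and Anxa3 and S100a4 reached at most 20.1 and 3.17 CPM in any embryo and named lineage. Levels are given as summed CPM (reads of the gene over all reads, both summed over the cells of an embryo and lineage) or as mean log2(CPM + 1) over cells, averaged over embryos. CPM is not divided by gene length, so it ranks groups and not genes. Pseudogene copies of S100a11 and Krt8 (S100a11-ps and Krt8-ps) may have taken or given reads, and how the counting treated shared reads is not given in the sources used here.

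**Figure D1:**
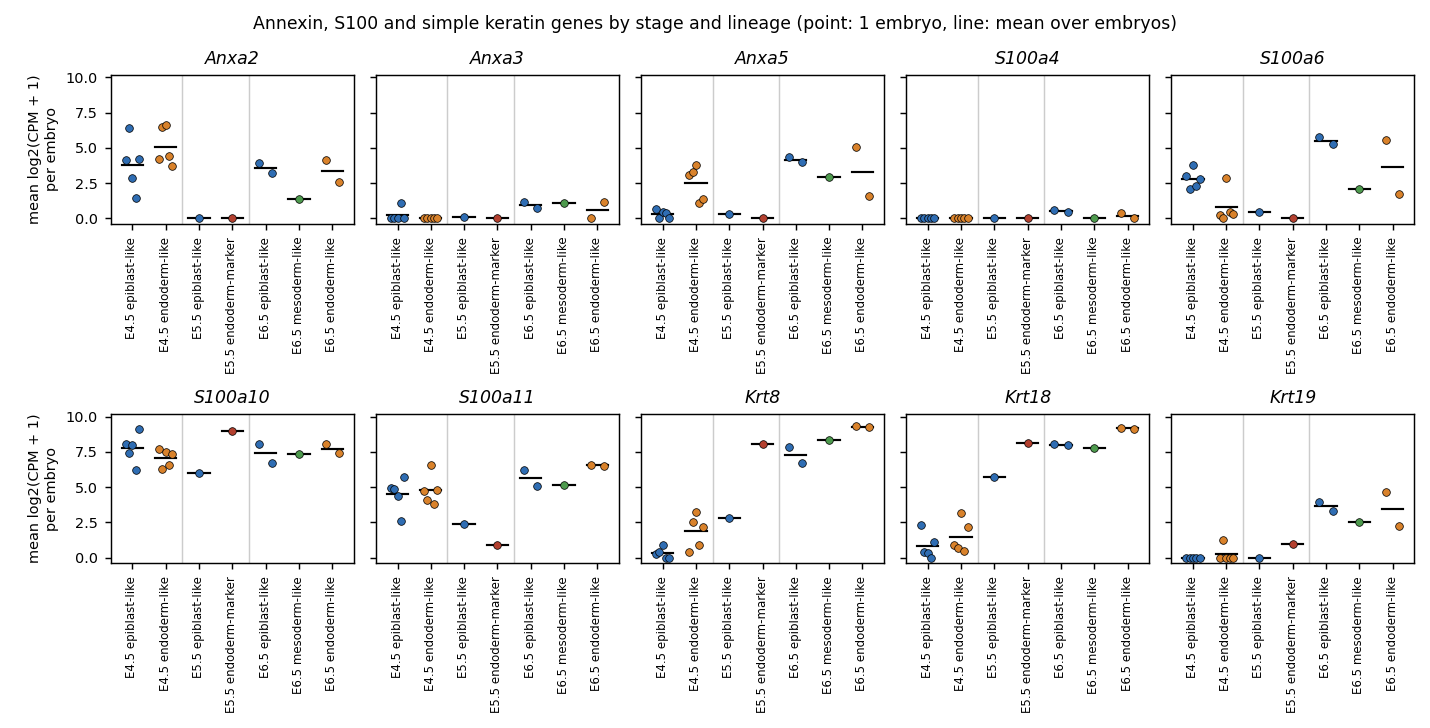
Mean log2(CPM + 1) of the 10 genes on the vertical axis, by stage and lineage, with 1 point per embryo and a line at the mean over embryos. Krt8 and Krt18 stand highest at E6.5 and in the E5.5 endoderm-marker cells, S100a10 is high throughout, and Anxa2 is near 0 at E5.5.

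Among the annexins, Anxa2, which binds S100A10 and plasminogen activator, had 32.3, 107, 18.1, 8.41 and 77.3 summed CPM in the epiblast-like cells of E4.5 embryos 1 to 5. In the endoderm-like cells of the same embryos it had 49.3, 97.9, 134, 72.5 and 43.1 CPM. The groups overlapped, and the difference within an embryo was higher in endoderm-like cells in 4 of 5 embryos by mean log2(CPM + 1), by 1.28 ± 1.93 (SD, n = 5). The embryos of prefix P1 differed little (4.13 and 6.44 in epiblast-like, 4.19 and 6.49 in endoderm-like cells), and the larger differences were those of embryos 3 and 4 under prefix P2.

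At E5.5, Anxa2 was read in 1 of 38 epiblast-like cells (2.63%, exact Clopper-Pearson 95% interval 0.0666 to 13.8), at 3.49 CPM, and in none of the 8 endoderm-marker cells, which allows a share of up to 37.5%. Such intervals and limits count cells, cover counting error only and say nothing of the spread between embryos. Where 0 cells held a read, the limit is 3 over the number of cells. Summed CPM in epiblast-like cells went from 48.63 ± 41.998 (SD, n = 5) at E4.5 to 0.0799 in the E5.5 embryo and 28.9 ± 12.5 (SD, n = 2) at E6.5. Of the 4 listed genes with at least 10 CPM at both outer stages, Anxa2 was the 1 that was at least 8-fold lower at E5.5 than at both, against 1.08% of 6474 genes, and nothing is read from that count since the list was chosen with these levels known. S100a6 went from 18.1 over 3.64 to 76.99 CPM, S100a10 went from 321 over 97.4 to 248 CPM, and S100a11 from 44.998 over 12.4 to 69.8 CPM. With 1 embryo, E5.5 was not tested, and its own prefix cannot be told apart from the stage. The E5.5 cells also had the lowest median of detected genes. Its part in the low E5.5 levels of Anxa2 and the other listed genes was not tested.

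**Figure D2:**
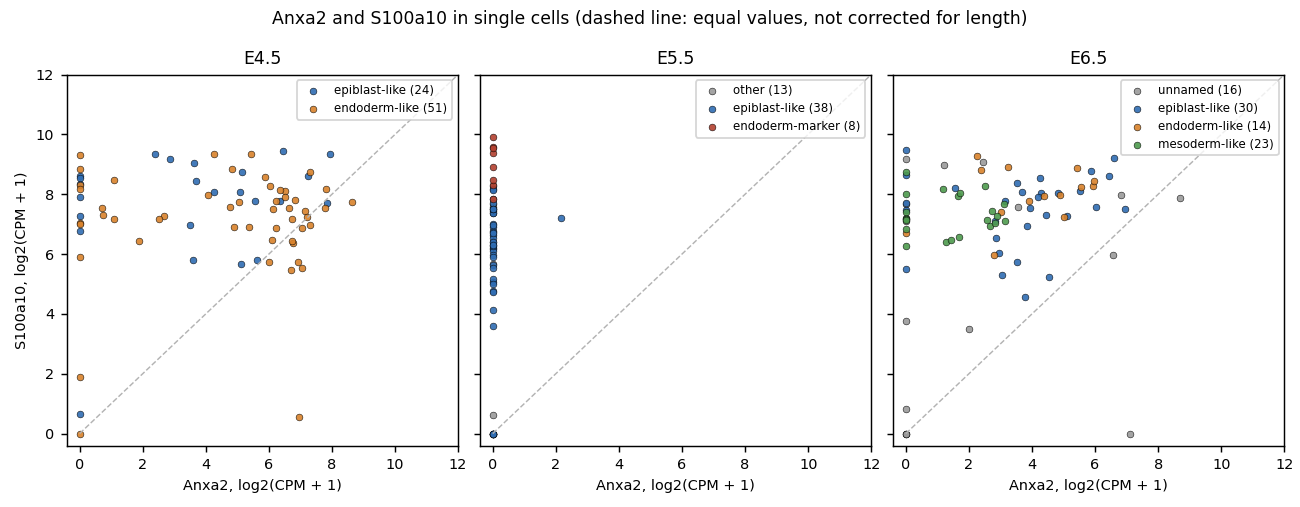
Anxa2 on the horizontal and S100a10 on the vertical axis, both log2(CPM + 1), with 1 point per kept cell, coloured by lineage, in a panel for each stage. At E5.5, 35 of 38 epiblast-like cells hold S100a10 reads alone and lie on the left edge, whereas 17 of 24 epiblast-like and 42 of 51 endoderm-like cells hold both at E4.5.

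At E6.5, Anxa2 had 37.7 and 20.1 CPM in the epiblast-like cells of embryos 1 and 2, 23.7 and 5.64 CPM in the endoderm-like cells and 2.23 CPM in the mesoderm-like cells. The mesoderm-like level was 0.111 of the epiblast-like level of embryo 2. The 8 trophectoderm and extraembryonic ectoderm markers also summed to less there, 22.8 against 60.3 CPM with 7 and 8 of them read, and their part in the difference was not tested. Relative to Ttr, Anxa2 stood at 0.0210 and 0.0179 in epiblast-like cells, at 0.00517 in the endoderm-like cells of embryo 1, at 0.00185 in the 2 endoderm-like cells of embryo 2 and at 0.00402 in the mesoderm-like cells. The part of endoderm reads in these levels was not tested. Anxa2 and S100a10 levels were at most weakly related across the cells of the lineages examined. Pearson r was 0.25 in 24 E4.5 epiblast-like, 0.09 in 51 E4.5 endoderm-like, 0.11 in 30 E6.5 epiblast-like and 0.02 in 23 E6.5 mesoderm-like cells. No r was computed for the 14 E6.5 endoderm-like cells. Cells of a lineage share embryos and differ in depth, so these are descriptions.

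Anxa5, which binds phosphatidylserine, was the annexin whose E4.5 lineages did not overlap. It had 2.12, 0, 0.704, 0.601 and 0 CPM in the epiblast-like cells of embryos 1 to 5, and 32.8, 29.2, 48.99, 8.26 and 9.20 CPM in the endoderm-like cells. Reads were held by 3 of 24 epiblast-like cells against 24 of 51 endoderm-like cells. In the E5.5 embryo Anxa5 was read in 3 of 38 epiblast-like cells and in no endoderm-marker cell, where the floor of 3 reads puts it at least 134-fold below the E4.5 endoderm-like cells. At E6.5 it had 29.5 and 41.1 CPM in epiblast-like, 52.9 and 1.61 CPM in endoderm-like and 11.5 CPM in mesoderm-like cells, and the 2 endoderm-like cells of embryo 2 thus lay below the other named groups of that stage.

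Anxa3 was scarce. It was read in 1 of 24 epiblast-like and 0 of 51 endoderm-like cells at E4.5 (up to 5.88% allowed) and in 1 of 38 epiblast-like cells at E5.5. At E6.5 it was read in 8 of 30 epiblast-like and 8 of 23 mesoderm-like cells, at most 38.7 CPM, and in 1 of 14 endoderm-like cells.

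Of the S100 genes, S100a6 (calcyclin) went the other way from Anxa5 at E4.5. It had 17.4, 8.27, 36.4, 9.76 and 18.7 CPM in the epiblast-like cells of embryos 1 to 5, and 0.371, 0, 22.3, 1.32 and 0.916 CPM in the endoderm-like cells. Within each of the 5 embryos it was lower in endoderm-like cells, by 2.02 ± 0.69 on the mean log2(CPM + 1) scale, but the groups overlapped through the endoderm-like cells of embryo 3. It was read in 14 of 24 epiblast-like cells, 2 to 4 in each embryo, and in 7 of 51 endoderm-like cells, 3 of them among the 5 of embryo 3. At E5.5, 4 of 38 epiblast-like cells and no endoderm-marker cell held a read. At E6.5 every epiblast-like cell held one, and the summed level was 97.3 and 56.7 CPM in epiblast-like, 82.2 and 8.05 CPM in endoderm-like and 5.30 CPM in mesoderm-like cells, the last at 0.0934 of the epiblast-like level of embryo 2.

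S100a10 (p11), the partner of ANXA2, was read in all named lineages at no less than 83.6 CPM in any embryo. In E4.5 epiblast-like cells it had 287, 219, 331, 161 and 609 CPM in embryos 1 to 5, and in endoderm-like cells 250, 83.6, 214, 150 and 300 CPM. The groups overlapped, although by mean log2(CPM + 1) within an embryo endoderm-like cells were lower in 4 of 5. The E5.5 epiblast-like cells had 97.4 CPM with reads in 36 of 38 cells, and the 8 endoderm-marker cells between 230 and 963 CPM. At E6.5 it had 346 and 149 CPM in epiblast-like, 280 and 137 CPM in endoderm-like and 184 CPM in mesoderm-like cells, so the embryos differed more than the lineages within an embryo.

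S100a11 (calgizzarin), which pairs with ANXA1 in other tissues, overlapped between the E4.5 lineages, with 43.7, 65.2, 43.2, 17.3 and 55.6 CPM in epiblast-like and 57.4, 17.2, 99.8, 28.7 and 47.7 CPM in endoderm-like cells. At E5.5 it had 12.4 CPM in epiblast-like cells, with reads in 24 of 38, and 3.83 CPM in endoderm-marker cells, with reads in 2 of 8. At E6.5 it was read in every cell of the named lineages, at 95.2 and 44.4 CPM in epiblast-like, 104 and 74.1 CPM in endoderm-like and 37.9 CPM in mesoderm-like cells. S100a10 and S100a11 varied together across the 30 E6.5 epiblast-like cells (r = 0.76, Spearman 0.79, and 0.40 with every cell thinned to 50000 reads). The same pair gave r of 0.58 in 24 E4.5 epiblast-like, 0.43 in 51 E4.5 endoderm-like, 0.12 in 38 E5.5 epiblast-like and 0.10 in 23 E6.5 mesoderm-like cells. At E4.5, Spearman's rho was 0.51 in epiblast-like and 0.23 in endoderm-like cells. Within single E4.5 embryos r ranged from -0.01 to 0.87 and from -0.82 to 0.68 in these 2 lineages.

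S100a4, a gene of migrating mesenchymal cells, had no read in any kept cell of E4.5 or E5.5. At E6.5 it was read in 8 of 30 epiblast-like cells at up to 22.2 CPM, in 3 of 14 endoderm-like cells and in 0 of 23 mesoderm-like cells, for which the limit is 13.04%. Most of its reads came from unnamed cells, and 5647 of all 6736 reads from 1 unnamed cell of embryo 2 at 1039 CPM, followed by 102 and 61.1 CPM in 2 unnamed cells of embryo 1.

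**Figure D3:**
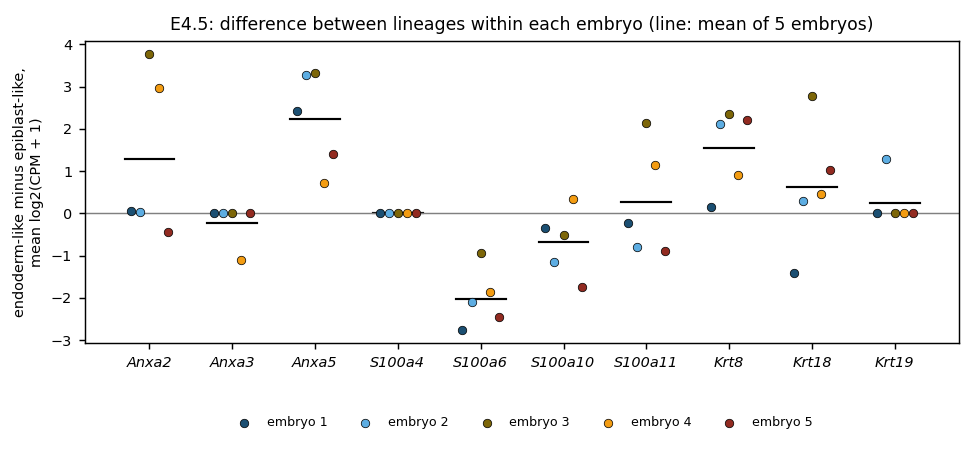
Endoderm-like minus epiblast-like difference in mean log2(CPM + 1) within each E4.5 embryo, with 1 point per embryo and a line at the mean of 5. Anxa5 and Krt8 lie above 0 and S100a6 below 0 in all 5 embryos, while Anxa2, S100a10, S100a11 and Krt18 have embryos on both sides.

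The keratins were low at E4.5. Krt8 had 0.425, 0.487, 3.76, 0 and 0 CPM in the epiblast-like cells of embryos 1 to 5 and 1.11, 8.01, 87.1, 4.22 and 16.8 CPM in the endoderm-like cells, higher in the latter in all 5 embryos, with overlap only through epiblast-like cells of embryo 3. Krt18 had 26.8, 0.487, 0.470, 0 and 5.17 CPM against 3.34, 1.14, 27.7, 0.627 and 20.05 CPM, with groups that overlapped and embryo 1 in the opposite direction. Krt19 was read in 1 E4.5 cell, an endoderm-like cell of embryo 2 at 34.1 CPM. The trophectoderm markers, which keratins accompany in the blastocyst, had a median sum of 66.5 CPM in the 18 endoderm-like cells with a Krt8 read and of 100 CPM in the 33 without, and Cdx2 was read in 0 and 1 of them. Their part in the E4.5 difference was not tested.

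At E5.5 the keratin partners differed in how many cells held them. In epiblast-like cells Krt18 had 128 CPM with reads in 34 of 38 cells (89.5%, interval 75.2 to 97.1), and Krt8 had 28.6 CPM with reads in 23 of 38 (60.5%, interval 43.4 to 75.96). In 13 of these cells Krt18 was read without Krt8, and in 2 Krt8 without Krt18. The ratio of Krt18 to Krt8 reads, which can be set side by side between groups whatever the lengths of the genes, was 4.46 in these cells, 1.16 in the endoderm-marker cells, 0.979 and 2.16 in the epiblast-like cells of the E6.5 embryos, 0.939 and 0.868 in the endoderm-like and 0.633 in the mesoderm-like cells. Krt19 was not read in any E5.5 epiblast-like cell.

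The 8 endoderm-marker cells of E5.5 had 498 CPM of Krt8 and 578 CPM of Krt18. Cell by cell, Krt8 ranged from 0.391 to 1178 CPM with a median of 487, and Krt18 from 0 to 1052 CPM with a median of 731. The low end of both was the same cell, number 24, which had 230 CPM of S100a10 and the endoderm genes but almost no keratin. Krt19 was read in 1 of the 8, number 84, at 237 CPM, so no fold is given for it. Against the epiblast-like cells of the same embryo, Krt8 was 17.4-fold, S100a10 5.74-fold and Krt18 4.52-fold higher, and S100a11 0.310-fold as high. Among the 5 listed genes with 10 CPM in either group, 4 were at least 2-fold higher, Krt19 among them through that 1 cell, and 1 lower, where 23.3% and 39.2% of 8245 genes were, and nothing is read from this count. No embryo replicates this comparison.

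**Figure D4:**
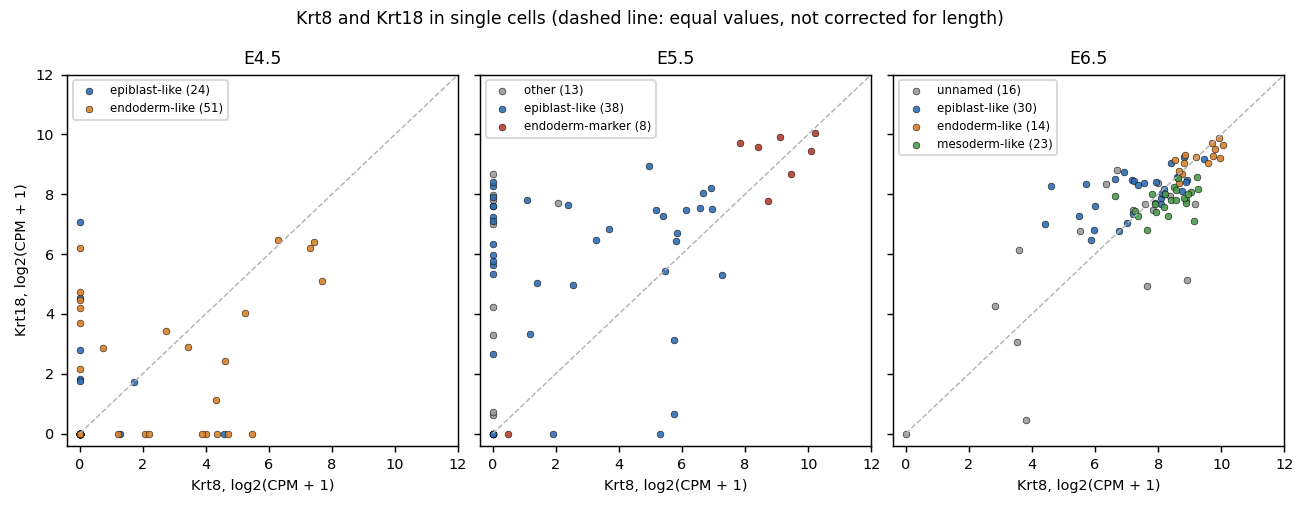
Krt8 on the horizontal and Krt18 on the vertical axis, both log2(CPM + 1), with 1 point per kept cell, coloured by lineage, in a panel for each stage. Most E4.5 cells lie at 0, E5.5 epiblast-like cells spread up the left edge with 13 of 38 holding Krt18 reads alone, and the named E6.5 cells all hold both.

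By E6.5 every cell of the named lineages held reads of both Krt8 and Krt18. Krt8 had 299 and 138 CPM in the epiblast-like cells of embryos 1 and 2, 354 CPM in mesoderm-like and 644 and 513 CPM in endoderm-like cells. Krt18 had 293 and 298 CPM, 224 CPM, and 605 and 445 CPM in the same groups. Endoderm-like cells thus lay above both other lineages for both genes, while Krt8, unlike Krt18, was higher in mesoderm-like than in epiblast-like cells of embryo 2, by 2.56-fold. The 8 trophectoderm and extraembryonic ectoderm markers summed to 133 and 42.7 CPM in the endoderm-like cells of embryos 1 and 2, with 8 and 3 of them read, to 114 and 60.3 CPM in epiblast-like cells and to 22.8 CPM in mesoderm-like cells, and 4 of them (Cdx2, Elf5, Gata3 and Plac1) were raised in the endoderm-like cluster beside 12 endoderm markers. Their part in the E6.5 keratin levels was not tested. Krt19 had 33.5 and 12.6 CPM in epiblast-like, 9.09 CPM in mesoderm-like and 42.4 and 4.03 CPM in endoderm-like cells.

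In embryo 1, of the 8 listed genes with 10 CPM in either group, Krt8 (2.15-fold) and Krt18 (2.06-fold) were at least 2-fold higher in endoderm-like than epiblast-like cells and none was lower, beside 16.7% and 7.89% of 8531 genes. In embryo 2, mesoderm-like against epiblast-like, Krt8 was higher and Anxa2, Anxa5 (0.280-fold) and S100a6 lower, beside 11.9% and 9.23% of 8794 genes. Nothing is read from these counts, since the genes were listed with their levels known, and the second comparison rests on 1 embryo.

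In E6.5 epiblast-like cells, the listed genes differed in their correlation with the endoderm gene Ttr, which was read in every kept E6.5 cell. Across the 30 epiblast-like cells, with both embryos pooled, r with Ttr was 0.77 for Krt8, 0.73 for S100a11, 0.72 for S100a10, 0.70 for S100a6 and 0.48 for Krt18. For the same genes in that order, r was 0.32, -0.06, 0.07, 0.30 and 0.36 in 23 mesoderm-like cells. It was 0.26, 0.28, -0.21, -0.53 and 0.17 in 14 endoderm-like cells. It was lower for Anxa5 (0.38), Krt19 (0.34) and Anxa2 (0.23). Relative to Ttr, Krt8 stood at 0.166 and 0.123 in epiblast-like cells, close to the 0.140 and 0.168 of endoderm-like cells, whereas the mesoderm-like cells had 0.639. Krt18 stood at 0.163 and 0.266, against 0.132 and 0.146 in endoderm-like and 0.404 in mesoderm-like cells. In the epiblast-like cells at or under the median Ttr of their embryo, Krt8 had 240 and 61.3 CPM and Krt18 246 and 219 CPM, against 347 and 183 CPM and 331 and 344 CPM in the cells above it. Krt19 had 21.7 CPM in the cells of lower Ttr and 42.9 CPM in the others of embryo 1, but 15.04 CPM against 11.2 CPM in embryo 2. The part of endoderm reads in the E6.5 epiblast-like levels was not tested.

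**Figure D5:**
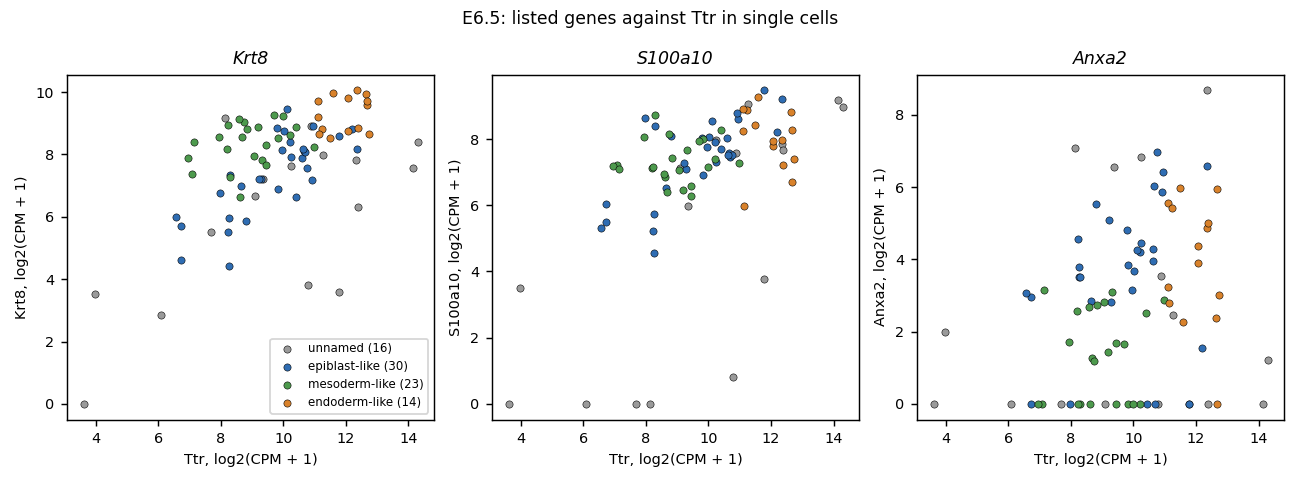
Krt8, S100a10 and Anxa2 on the vertical axes against Ttr on the horizontal axis, all log2(CPM + 1), with 1 point per kept E6.5 cell, coloured by lineage. Krt8 and S100a10 are higher in epiblast-like cells with more Ttr (r = 0.77 and 0.72, n = 30), the mesoderm-like cells hold more Krt8 at the same Ttr, and Anxa2 shows this less (r = 0.23).

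Within lineages, Krt8 and Krt18 varied together in E6.5 epiblast-like cells (r = 0.57, Spearman 0.55, n = 30, and 0.32 at 50000 reads per cell), less so in mesoderm-like cells (r = 0.40, and -0.06 at 50000 reads, n = 23), and were almost unrelated in E5.5 epiblast-like cells (r = 0.10, n = 38). The r of 0.95 in the 8 endoderm-marker cells rested on cell number 24, and Spearman's rho there was 0.45. Over the 19 sets of at least 3 cells of an embryo and a lineage, with the unnamed cells of each E6.5 embryo and the endoderm-marker and remaining cells of E5.5 as sets of their own, the genes most alike in level among 6089 were Cyba, Prss8 and Krt8 for Krt18 (r = 0.95, 0.94 and 0.93), Rbp4, Apob and Tmprss2 for Krt8 (0.95, 0.94 and 0.94) and Reep6, Slc13a4 and Cldn2 for Krt19 (0.96, 0.95 and 0.94). For Anxa5 they were Dgat2, Lad1 and Plbd2 (0.92 each), for Anxa2 Erlin1, Tbx3 and Ocrl (0.85, 0.82 and 0.81), and for S100a6 Akap17b, Slc13a4 and Sfn (0.82, 0.81 and 0.80). For S100a10 they were Ggnbp2, Tor1aip2 and Apoe (0.90, 0.89 and 0.88), and for S100a11 Ogt, Coa5 and Stt3b (0.91, 0.88 and 0.87). Anxa3 and S100a4 stayed under 2 on the log2 scale in every set, too low for such a ranking to be read. These sets share embryos, depth and stage, so these values carry no test.

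Counts summed per embryo and lineage were also fitted over all genes with edgeR, and the fitted differences of the listed genes are given as a description with no test. For endoderm-like minus epiblast-like at E4.5, with embryo as a block, the log2 difference was 5.39 ± 1.16 (SE, n = 5 embryos) for Anxa5, 4.92 ± 0.64 for Krt8 and -3.68 ± 0.96 for S100a6. It was 1.02 ± 0.64 for Anxa2, 1.71 ± 0.81 for Krt18, 0.02 ± 0.54 for S100a11 and -0.73 ± 0.27 for S100a10. The S100a6 value went to -2.003 without the block, and that of Krt18 to 3.28 without embryo 1 and to 0.44 without embryo 3. On the mean log2(CPM + 1) of cells, where each cell counts alike, the differences were 2.23 for Anxa5 and 1.55 for Krt8.

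For epiblast-like cells at E6.5 (n = 2 embryos) minus E4.5 (n = 5), fitted without a block, the log2 difference was 7.78 ± 1.08 (SE) for Krt8, 5.48 ± 1.1997 for Krt18 and 5.62 ± 1.46 for Anxa5. It was 2.001 ± 0.70 for S100a6, 0.55 ± 0.62 for S100a11, -0.47 ± 0.50 for S100a10 and -0.84 ± 0.91 for Anxa2. Krt19 and S100a4 had no read in E4.5 epiblast-like cells, and the floor of 3 reads over the group puts Krt19 at least 154-fold higher at E6.5, or 84.003-fold without E6.5 embryo 1. Of the 89 reads of S100a4 in E6.5 epiblast-like cells, 54 came from 1 cell, so no fold is given. With the E6.5 cells up to the median Ttr of their embryo alone, an alternative chosen after seeing the data, the difference was 7.18 for Krt8 and 5.06 for Krt18. The Krt8 value went to 10.45 without E4.5 embryo 3, and that of Krt18 to 7.39 without E4.5 embryo 1.

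Of 48 related genes, 47 were in the table and 4 (Anxa10, S100a7a, S100a9 and Krt20) had no read in any kept cell. They were tested in the same fits with edgeR's quasi-likelihood test (Benjamini-Hochberg adjustment over all genes). Since these genes too were listed with earlier results of these data known, their adjusted p-values are no independent support. At E4.5, 5 of the 38 that entered the fit were higher and 3 lower in endoderm-like than epiblast-like cells, beside 5.28% higher and 4.51% lower of 14644 genes. None of 7 other annexins and none of 3 other keratins passed the test in either direction. Of 9 other S100 genes 3 were higher, among them S100g, the calcium-binding protein of absorptive epithelia, at 22.1 to 92.2 CPM against 0 to 32.3 CPM over 5 embryos (log2 difference 3.40 ± 1.06, adjusted p = 0.0329 by edgeR). S100a16 had no read in epiblast-like cells and 7.04, 0, 7.26, 0 and 25.9 CPM in the endoderm-like cells of embryos 1 to 5. Embryos 2 and 4 thus show no difference, and the mean of the 5 was at least 53.6-fold higher, or 23.8-fold without embryo 5 (adjusted p = 0.0399 by edgeR).

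Among genes that work with annexins and S100 proteins, Plat, the tissue plasminogen activator that ANXA2 binds, was at 3.49 to 43.5 CPM in endoderm-like and 0 to 4.96 CPM in epiblast-like cells (log2 difference 6.12 ± 2.04, adjusted p = 0.0495 by edgeR). Dysf, dysferlin of the membrane repair complex, had no read in endoderm-like cells and 8.49, 0, 10.1, 14.6 and 6.03 CPM in the epiblast-like cells of embryos 1 to 5, so that the mean was at least 158-fold lower (adjusted p = 0.0370 by edgeR). Among desmosome genes Pkp2, plakophilin 2, was lower in endoderm-like cells, at 0 to 3.47 CPM against 1.72 to 54.4 CPM (log2 difference -4.58 ± 1.42, adjusted p = 0.0321 by edgeR). These 5 genes were taken for the largest change among the related genes called, not for the smallest adjusted p. With limma on the mean of cells none of these 5 passed the test, whereas 2 of all related genes did. S100g did not pass without E4.5 embryo 2, 3 or 5 (2.44 to 3.36) or without the block (2.32), Plat without embryo 1, 2, 3 or 5 (5.29 to 6.68) or the block (4.14), and Pkp2 without embryo 1, 2 or 3 (-3.76 to -3.69). S100a16 did not pass without embryo 1, 3 or 5, nor Dysf without embryo 1, 3, 4 or 5.

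Between E4.5 and E6.5 epiblast-like cells, 1 of 34 related genes was higher and 1 lower, beside 0.809% higher and 1.72% lower of 13351 genes. Jup, plakoglobin, fell from 86.99 to 191 CPM over 5 embryos to 20.5 and 33.99 CPM (log2 difference -2.33 ± 0.52, adjusted p = 0.0276 by edgeR), and Ezr, the ezrin of microvilli, rose from 41.1 to 117 CPM to 231 and 420.5 CPM (log2 difference 1.98 ± 0.44, adjusted p = 0.0276 by edgeR). Jup did not pass without E4.5 embryo 1, 3 or 4 or either E6.5 embryo (-2.62 to -2.06), nor Ezr without E4.5 embryo 2 or 4 or E6.5 embryo 1 (1.41 to 1.95) or in the E6.5 cells of lower Ttr (1.11). The Ezr level was 499.99 and 671 CPM in the E6.5 endoderm-like cells, and the part of endoderm reads in its rise was not tested.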

How the data were processed

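The labels assign the RNA libraries to a stage and an embryo. Their reads were trimmed, mapped to GRCm38 and counted by the authors (submitters' processing notes: Trim Galore 0.4.2 and 0.4.5, cutadapt 1.8.1, HISAT2 2.1.0, featureCounts), and the authors deposited whole-number counts per gene without normalization. The counting annotation is not given in the sources used here. The bisulfite libraries were not analysed here, no doublets were called, and reads carry no molecular identifiers. The 10 genes, the related genes and the marker lists were chosen with earlier results of these data known.

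Cells were clustered per stage with scanpy 1.11.5 (Leiden, resolution 0.5, seed 0). Left out were the annexin, S100 and keratin genes, all related genes listed for testing, and 12 others (DNA methylation genes, Nanog, Sox2 and Zfp42). Each cluster took the name of the marker list with the most raised genes, at least 3. CPM and log2(CPM + 1) were computed from the counts. Counts summed over at least 3 cells per embryo and lineage were tested with edgeR 4.0.16 (quasi-likelihood, TMM, default filter, Benjamini-Hochberg, threshold 0.05). DESeq2 1.42.0, limma 3.58.1 and other filters, clusterings and left-out embryos were alternatives. Epiblast-like cells of the 3 stages were fitted together, and the spread for E5.5, with 1 embryo, was taken from the other stages. The same E4.5 embryo gave both lineages, which pairs them by design. Their deviations from the lineage means correlated weakly (r from -0.01 to 0.07). The tests planned for E6.5 endoderm-like cells were not run, since embryo 2 held 2 such cells. The related genes named are those past the threshold, up to the 5 with the largest change per comparison, and the genes of like pattern are the 3 with the highest Pearson r with each listed gene among those with a mean log2(CPM + 1) of at least 5 in a unit. The procedure was tested on simulated data, where edgeR missed most of the changed genes and made few false calls, while most DESeq2 calls were false.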

Additional observations from a re-analysis of the deposited data

Results flagged for a closer look

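In 3 of 16 sets of 5 E4.5 embryos (listed genes by lineage, mean log2(CPM + 1)), 1 embryo lay farther from the others than Dixon's value at 95%. These levels are among the values the genes were chosen on, so this describes the spacing of the embryos and is no test, and the rate of about 1 in 20 sets that chance would pass is not read here. For Anxa3, at 1.11 in the epiblast-like cells of embryo 4, and for Krt19, at 1.28 in the endoderm-like cells of embryo 2, the other 4 embryos were at 0, so that any value above 0 passes by construction, and each value came from 1 cell. S100a6 had 2.86 in the endoderm-like cells of embryo 3, where the nearest embryo had 0.45.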

How the results depend on the processing

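For E4.5 endoderm-like against epiblast-like cells, edgeR called 1434 genes, DESeq2 2875, and 1059 to 1203 were called with 1 embryo left out. Of the related genes 8 were called, 14 with DESeq2, 2 with limma, 3 with limma and a pseudocount of 10, 4 with no replicate block (the pairing by embryo, 1401 genes in all), and 2 to 8 with 1 embryo left out. For epiblast-like cells at E6.5 against E4.5, 338 genes were called (31.95% higher), 991 with DESeq2, 565 without a filter on low counts (46.2% higher), 2213 with limma (86.1% higher), 1950 with limma and a pseudocount of 10, 1008 with all cells summed (60.2% higher), and 112 to 480 with 1 embryo left out (128 and 112 with E6.5 embryo 1 or 2 omitted). The median of all genes moved from 0.08 to 0.56 (log2) with limma. Of the related genes 2 were called, 5 without a filter, 10 with limma, 9 with limma and a pseudocount of 10, 1 with clustering seed 1, 1 with the family genes kept in the clustering, 4 with the replicate block, 1 with the cells of lower Ttr, 8 with all cells summed, and 0 to 3 with 1 embryo left out. Same-numbered embryos of E4.5 and E6.5 share only a number (deviations correlated at -0.01 and 0.01), and with that block 498 genes were called. The cells of lower Ttr, the fit without the E5.5 embryo and the least folds without 1 embryo were chosen after seeing the data. No difference of a related gene named above changed direction, and the causes of the moves were not tested. With clustering resolution 0.3 the E6.5 comparison could not be fitted, for want of epiblast-like clusters. The comparison between stages rests on 2 E6.5 embryos.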

Other observations

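The 13 E5.5 cells that were neither epiblast-like nor endoderm-marker cells by the naming rules had a median of 3039 detected genes, against 5860 in epiblast-like cells. All 13 held Pou5f1 reads. The 9 epiblast markers had a median sum of 2695 CPM in them and 3184 CPM in epiblast-like cells, and the 13 endoderm markers 4.36 and 115 CPM. These 13 cells held Krt18 in 9 cells (93.3 CPM summed) and Krt8 in 1 (0.171 CPM). S100a10 was read in 7 of them (104 CPM), S100a11 in 3 and S100a6 in 2, with no read of Anxa2, Anxa3, Anxa5, S100a4 or Krt19. The 16 unnamed E6.5 cells, 8 in each embryo, had 35.8 and 148 CPM of Anxa2 in embryos 1 and 2, with reads in 5 and 3 cells. They had 118 and 142 CPM of S100a6, 303 and 146 CPM of Krt8, and 103 and 11.96 CPM of Krt19, and no read of Anxa3. Their median depth was 5667599 and 2811884 reads, where the other sets of cells of an E6.5 embryo had medians between 621012 and 1332922 reads.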
